A study of Mus musculus with 4 samples.

Results

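The genes described here belong to the integrated stress response and the unfolded protein response. They are 42 of the 23997 genes in the expression table, chosen by symbol and grouped by role: sensors, transcription factors, feedback genes, enzymes of serine, one-carbon, asparagine and sulfur amino acid metabolism, tRNA synthetases, and chaperones, disulfide isomerases and degradation genes of the endoplasmic reticulum (ER). All 42 symbols were in the table, and the rule that lists them uses no measured value.

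RNA was sequenced from lung endothelial cells of C57BL/6 mice, grown in EBM-2 medium with 10% serum. All cultures received an siRNA for 48 h, either a control siRNA or an siRNA against the glucocorticoid receptor (GR, encoded by Nr3c1). In each arm, cells were left without dexamethasone or given 100 nM dexamethasone (DEX), a synthetic glucocorticoid that activates GR, for 18 h. Values of the 4 conditions are given throughout in 1 order: control siRNA without and then with DEX, then GR siRNA without and then with DEX. The series design states 3 replicates per condition, but the table has 1 column per condition, so no SD, n or test can be given for any value, and each difference is that between 2 columns. The sources used here do not say whether the cells are a primary culture or a line, or how old the animals were.

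In the integrated stress response, kinases that sense different kinds of stress phosphorylate the initiation factor eIF2. General protein synthesis then falls, while the mRNA of the transcription factor ATF4 is translated better, and ATF4 raises genes for amino acid synthesis, amino acid uptake and tRNA charging. In the unfolded protein response, misfolded protein in the ER activates several sensors, among them PERK (Eif2ak3), which is one of those eIF2 kinases, IRE1 (Ern1), which splices the mRNA of XBP1, and ATF6, which is cut to release a transcription factor. XBP1 and ATF6 raise chaperones and degradation genes. Much of the pathway acts through phosphorylation, splicing, cleavage and translation, none of which a gene-level RNA value shows.

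Promoter sequences are shown for members that hold a short element through which ATF6 and XBP1, or ATF4, are known to act. Of the 42 genes, 36 had a promoter window in RefSeq (GRCm38.p6), running from 250 bases before the start site to 50 bases from it on. The ER stress element was searched on both strands as CCAAT and CCACG with 9 bases of any kind between them. Counted per gene, it was present in 7 of these 36 (19.4%) and in 0.137% of all 27025 genes with such a window. Of the 8574 such genes with at least 1 FPKM in a column, 0.152% held it. The members were chosen as genes of these responses, so a larger share among them, here or below, is not a result of these data. The stretches below run 5′ to 3′ on the gene's strand with the element in capitals. In Calr and Creld2 it lies on the opposite strand and is therefore read as its reverse complement.
Hspa5, chr2:34771995-34772073, plus strand: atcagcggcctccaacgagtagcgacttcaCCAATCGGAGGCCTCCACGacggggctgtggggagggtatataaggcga
Hsp90b1, chr10:86705608-86705686, minus strand: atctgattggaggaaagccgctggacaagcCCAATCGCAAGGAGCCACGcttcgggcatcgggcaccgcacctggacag
Calr, chr8:84847045-84847123, minus strand: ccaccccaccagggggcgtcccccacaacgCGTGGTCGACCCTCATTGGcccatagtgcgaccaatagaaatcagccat
Canx, chr11:50325770-50325848, minus strand: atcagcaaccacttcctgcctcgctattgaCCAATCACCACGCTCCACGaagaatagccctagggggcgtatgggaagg
Pdia6, chr12:17266461-17266539, plus strand: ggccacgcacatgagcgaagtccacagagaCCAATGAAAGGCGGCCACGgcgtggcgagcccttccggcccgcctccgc
Dnajc3, chr14:118937797-118937875, plus strand: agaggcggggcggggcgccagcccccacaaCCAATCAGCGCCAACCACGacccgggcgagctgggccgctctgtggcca
Creld2, chr15:88819490-88819568, plus strand: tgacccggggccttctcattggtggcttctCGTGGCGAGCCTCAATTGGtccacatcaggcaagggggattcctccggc

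The composite site of C/EBP and ATF factors, through which ATF4 is known to act, was searched on both strands as TGATGNAA. It was present in 7 of the 36 genes (19.4%), in 4.51% of all genes with a window and in 2.71% of those of at least 1 FPKM. Of the other pathway genes listed further on, 13 of 88 (14.8%) held it. The 7 genes were Aars, Asns, Chac1, Gars, Herpud1, Nupr1 and Trib3. The stretches of 4 of them are shown in the same way. In Chac1, Aars and Nupr1 the site lies on the opposite strand.
Asns, chr6:7693210-7693262, minus strand: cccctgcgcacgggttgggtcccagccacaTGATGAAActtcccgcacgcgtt
Chac1, chr2:119351019-119351086, plus strand: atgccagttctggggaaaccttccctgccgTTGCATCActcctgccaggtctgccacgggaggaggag
Aars, chr8:111033700-111033767, plus strand: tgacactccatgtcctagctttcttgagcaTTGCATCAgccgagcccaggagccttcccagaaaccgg
Nupr1, chr7:126625543-126625610, minus strand: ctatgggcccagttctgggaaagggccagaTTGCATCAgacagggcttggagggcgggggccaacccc

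The second ER stress element, ATTGG and CCACG with 1 base between them, was present in Dnajb11 and Herpud1 (5.56% of the 36 genes). It was in 0.0444% of all genes with a window and 0.0933% of those of at least 1 FPKM. The cAMP response element TGACGTCA was present in Ppp1r15a (2.78% of the 36), beside 2.03% of all genes with a window and 3.67% of those of at least 1 FPKM. The UPR element TGACGTGG was in none of the 36 (0.714% of all genes with a window, 1.07% of those of at least 1 FPKM). Of the 88 other pathway genes, 5 (5.68%) held it. The palindromic glucocorticoid response element, AGAACA and TGTTCT with 3 bases between them, was also in none of the 36 (0.0111% and 0.0117%). Of the 36 genes, 16 held at least 1 of these elements, and Herpud1 held both a composite site and a second ER stress element. None of the matches in the members overlapped another. A match is a string of letters in this window, not a measured binding site.

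The target of the siRNA was lower in both GR siRNA columns. Nr3c1 was at 14.4, 14.3, 5.45 and 5.32 FPKM (fragments counted per length of transcript and per size of library). The GR-induced gene Tsc22d3 was at 50.7, 57.9, 24.5 and 26.2 FPKM. The GR target Fkbp5 was at 92.2, 94.9, 55.9 and 54.1 FPKM, and Per1 at 15.1, 16.5, 7.91 and 7.99 FPKM. With DEX in control siRNA cells each of these GR targets was only a little higher, by less than it differed between the siRNAs. The DEX differences below come from columns in which known GR targets also moved little. All 10 endothelial markers were at 1 FPKM or more in a column. Their sum was 2539, 2542, 2282 and 2222 FPKM, lower in the GR siRNA columns. The widest of these differences in FPKM were those of Cldn5 (492.6, 525, 367.7 and 332) and Egfl7 (521.5, 515.9, 424.2 and 410.3). Pecam1 was nearly level (280.3, 277.5, 274.7 and 281.6 FPKM), and Kdr was higher with GR siRNA (89.35, 85.94, 99.67 and 93.26 FPKM). The sum therefore does not describe every endothelial marker. Of 8 fibroblast and mural cell markers, Acta2 and Dcn reached 1 FPKM and Rgs5 was at 0. Their sum was 6.60, 6.40, 12.3 and 11.4 FPKM, higher in the GR siRNA columns. The 8 lung epithelial markers summed to 1.09 to 1.77 FPKM, with Sftpa1 at 0. Of 8 leukocyte markers only Cd68, a lysosomal gene, reached 1 FPKM (160.7 to 218.3), and Ptprc and Cd3e were at 0. Of the lymphatic markers, Lyve1 was at 372.9, 347.8, 190.7 and 192.2 FPKM and Flt4 at 27.96, 27.15, 20.33 and 17.91 FPKM. Both were lower with GR siRNA, while Prox1 and Pdpn were below 1 FPKM. The part of these marker differences in any siRNA difference below was not tested, and in bulk RNA fewer cells of a type and less RNA per cell cannot be told apart. Depths relative to the GR siRNA column, estimated from the steps between low FPKM values, were 0.671 and 0.961 for control siRNA without and with DEX and 0.811 for GR siRNA with DEX.

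The pathway was well expressed in all 4 conditions. The median member stood at 54.6 FPKM with control siRNA, against 15.2 FPKM for the 11095 genes of at least 1 FPKM in that column, and 24 members were above the upper quartile of such genes in every column. The highest levels were those of the ER chaperones calreticulin (Calr, 653.3 to 822.9 FPKM) and GRP94 (Hsp90b1, 583.8 to 643.0 FPKM), the isomerase Pdia3 (446.0 to 458.1 FPKM) and BiP (Hspa5, 393.8 to 442.4 FPKM). At the other end, the transsulfuration enzyme Cth was below 1 FPKM in every column (0.782, 0.614, 0.951 and 0.863) and was left out of all comparisons, so that 41 of the 42 members were compared.

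**Figure D1:**
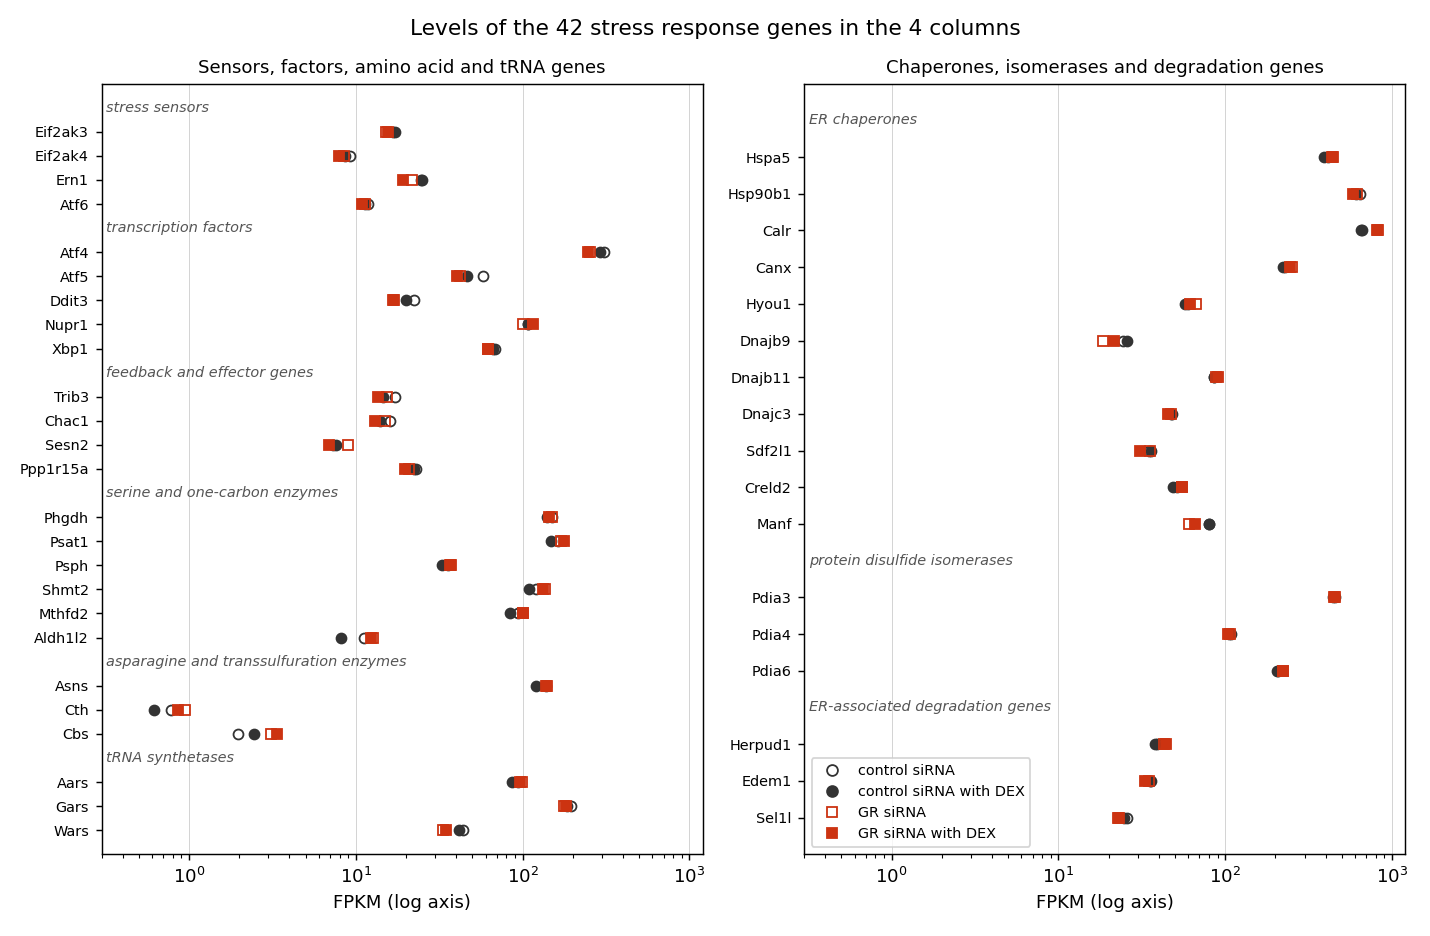
Level of each of the 42 genes in FPKM, on a log axis, in the 4 columns, grouped by role. Open symbols are cells without DEX and filled symbols cells with DEX, circles are control siRNA and squares GR siRNA. The 4 symbols of most genes lie close together, and the squares of Calr stand to the right of its circles.

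Differences were taken on log2(FPKM + 1), a scale that understates differences of genes of low abundance. On this scale no member differed by 1.5-fold in either siRNA comparison, where 2.36% of all genes tested were that much higher and 2.54% that much lower without DEX (2.36% and 2.62% with DEX). With a pseudocount of 0.1 in place of 1, Cbs without DEX (0.62) and Aldh1l2 with DEX (0.59) passed 1.5-fold. Without DEX, 3 of 41 members were at least 1.2-fold higher with GR siRNA (10.7% of all genes tested) and 6 were at least 1.2-fold lower (12.6%). With DEX in both arms, 5 members were higher (10.7%) and 2 lower (12.1%). Each count is a share of 4.88% to 14.6% of the members. The share lower with DEX (4.88%) was under the background of 12.1%, and the other shares were nearer to theirs. Over the 4 columns, the highest value of a member was a median of 1.156 times its lowest, against 1.153 times for the 9029 genes of at least 5 FPKM in a column and above 0 in all 4. The median difference of the members was −0.02 without DEX and −0.03 with DEX, and that of all genes −0.01 in each. Counting any difference, 19 members were higher and 22 lower without DEX (47.2% and 52.8% of all genes tested), and again 19 and 22 with DEX (48.2% and 51.8%).

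Within this flat total the roles lay on different sides. Sensors and transcription factors were mostly lower with GR siRNA in both DEX states, and the serine and one-carbon enzymes were higher in both. The pair of siRNA differences, each from its own columns, had the same sign in 35 of 41 members (85.4%), against 78.6% of the 9135 genes of at least 5 FPKM in a column. Both GR siRNA columns were above both control siRNA columns for 15 members (36.6%; 32.3% of all genes tested), and below them for 14 (34.1%; 36.6%).

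**Figure D2:**
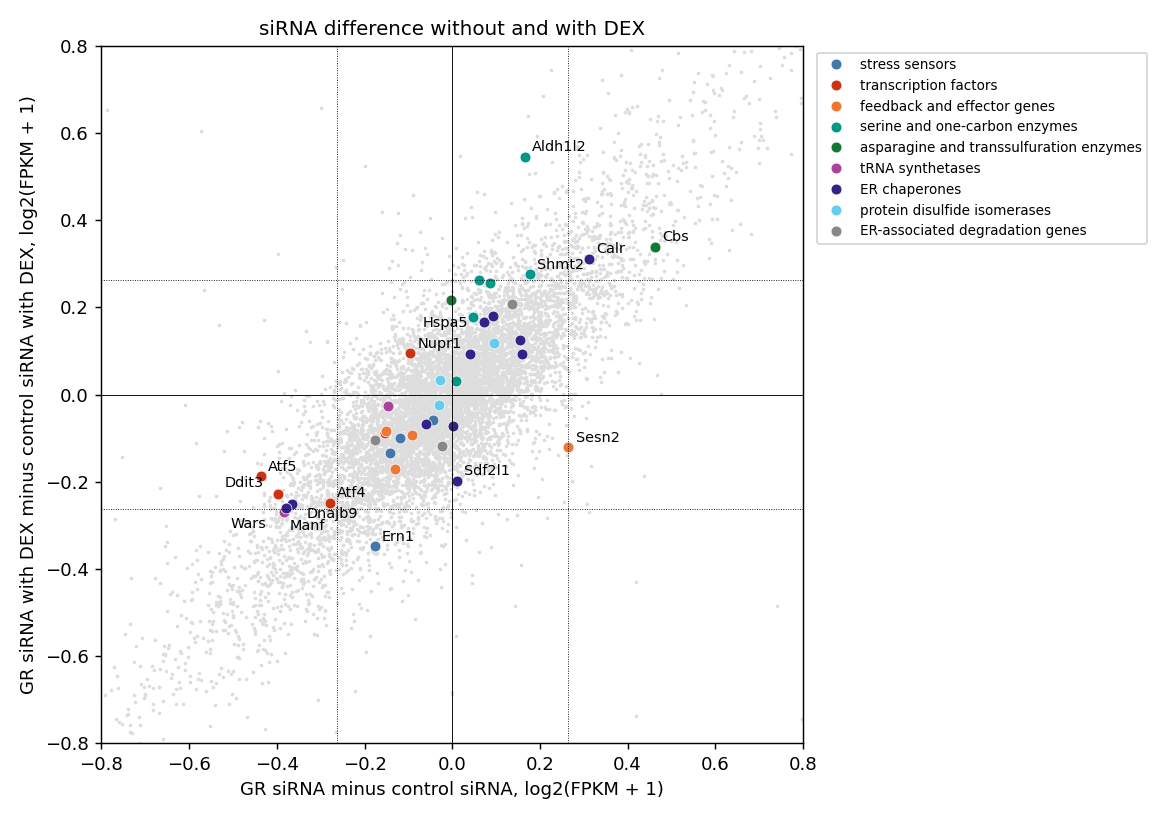
Difference between GR siRNA and control siRNA on log2(FPKM + 1), without DEX on the horizontal axis and with DEX on the vertical axis; coloured points are the 41 members by role, grey points the genes of at least 5 FPKM that lie within the axes, and dotted lines 1.2-fold. Calr and Cbs lie beyond 1.2-fold at the upper right, and Wars at the lower left.

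The 4 stress sensors were all lower with GR siRNA in both DEX states, a direction shared by 41.2% of all genes, and the differences were small. Ern1 (IRE1) was at 24.8, 24.8, 21.8 and 19.3 FPKM, lowest with GR siRNA and DEX. Its difference was −0.18 without DEX and −0.35 with DEX, the latter beyond 1.2-fold. Eif2ak3 (PERK) was at 16.8, 17.2, 15.1 and 15.6 FPKM, a difference of −0.14 and −0.13. For these genes and Eif2ak4, the kinase GCN2 that senses uncharged tRNA (9.29, 8.57, 8.47 and 7.93 FPKM), both GR siRNA columns were below both control columns. Atf6 showed almost no difference, at 11.8, 11.4, 11.4 and 10.9 FPKM.

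Of the 5 transcription factor genes, Atf4, Atf5 and Ddit3 were beyond 1.2-fold lower without DEX, and none was with DEX. Atf4, the central factor of the integrated stress response, was at 306.8, 291.4, 252.6 and 245.2 FPKM, a difference of −0.28 without DEX and −0.25 with DEX. The first is just past and the second just short of the 1.2-fold limit of 0.26, and both fell short of it when the columns were rescaled. Atf5, a related factor whose mRNA is also translated better under stress, was at 57.6, 46.5, 42.3 and 40.7 FPKM, so that only the control siRNA column without DEX stood apart from the other three. Its siRNA difference was −0.44 without DEX and −0.19 with DEX. Ddit3, which encodes the death-promoting factor CHOP, was at 22.2, 20, 16.7 and 16.9 FPKM, a difference of −0.40 and −0.23. Both GR columns were below both control columns for all 3 genes. Exons of Nup62 overlap 4.11% of the exonic bases of Atf5 on the other strand and those of Mars overlap 4.0% of those of Ddit3, and the sources used here do not give the strand setting of the counting. Nup62 was at 34.5, 33.2, 33.3 and 30.8 FPKM, and Mars at 70.2, 67.4, 76.9 and 74.5 FPKM.

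The other transcription factor genes differed less. Xbp1, counted over all its transcripts and therefore without regard to splicing, was at 68.7, 66.5, 61.7 and 62.5 FPKM. Nupr1, a small stress-induced chromatin protein, was at 107.8, 107.9, 100.8 and 115.3 FPKM, lower with GR siRNA without DEX and higher with DEX.

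Of the 4 genes for feedback and cell fate, which ATF4 and CHOP are known to raise, only Sesn2 was beyond 1.2-fold between the siRNAs, and only without DEX, as deposited and under both rescalings. Trib3, an inhibitor of ATF4 and AKT, was at 17.2, 14.6, 15.4 and 13.7 FPKM. Chac1, which degrades glutathione, was at 16.1, 13.9, 15.0 and 13.0 FPKM. In both genes the DEX columns were the 2 lowest, and the siRNA differences were −0.15 and −0.08 for Trib3 and −0.09 and −0.09 for Chac1. Ppp1r15a (GADD34), which directs the phosphatase that reverses eIF2 phosphorylation, was at 22.9, 22.5, 20.8 and 19.9 FPKM. Sesn2, an inhibitor of mTORC1 that senses leucine, was at 7.29, 7.60, 8.96 and 6.91 FPKM, with the GR siRNA column the highest and the GR siRNA with DEX column the lowest. Its siRNA difference was 0.26 without DEX, at the 1.2-fold limit, and −0.12 with DEX.

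The 6 serine and one-carbon enzymes, all genes that ATF4 is known to raise, were higher with GR siRNA in both DEX states, while Atf4 itself was lower. Among all genes tested, 36.8% were higher in both states. The median difference of the 6 was 0.07 without DEX and 0.26 with DEX. Shmt2, the mitochondrial enzyme that makes glycine from serine, was at 121.0, 109.8, 137.0 and 133.3 FPKM, a difference of 0.18 and 0.28. Psat1, the second enzyme of serine synthesis, was at 162.6, 148.2, 169.8 and 178.1 FPKM, a difference of 0.06 and 0.26. Mthfd2, a mitochondrial folate enzyme, was at 94.4, 83.8, 100.2 and 100.2 FPKM. In each of these 3 genes the control siRNA with DEX column was the lowest and both GR columns exceeded both control columns.

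Aldh1l2, the mitochondrial enzyme that oxidises formyl-tetrahydrofolate, had the widest spread of the 40 members of at least 5 FPKM, at 11.2, 8.14, 12.6 and 12.3 FPKM. The control siRNA with DEX column was the low one, and it enters both the siRNA difference with DEX (0.55, an FPKM ratio of 1.52) and the DEX difference in control siRNA cells (−0.41). Exons of D10Wsu102e, on the other strand, overlap 14.1% of its exonic bases and were at 16.2, 15.9, 16.96 and 16.5 FPKM. Psph, the last enzyme of serine synthesis, was at 35.6, 33.0, 36.8 and 37.4 FPKM, and 10.4% of its exonic bases are overlapped by Cct6a on the other strand. Phgdh, the first enzyme of serine synthesis, was at 150.2, 140.5, 151.0 and 143.7 FPKM, and its value is uncertain because 56.3% of its 31-base words occur in other annotated genes, mostly pseudogenes.

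Asns, which makes asparagine and is a standard readout of ATF4, was level without DEX and higher with DEX. It was at 137.6, 120.4, 137.4 and 140.2 FPKM, so that only the control siRNA with DEX column was low, and the siRNA difference was −0.00 and 0.22. Cbs, the first transsulfuration enzyme, was at 1.98, 2.45, 3.10 and 3.36 FPKM. Its siRNA difference of 0.46 without DEX and 0.34 with DEX was beyond 1.2-fold in both states, and on the FPKM values themselves the GR siRNA column was 1.57 times the control column. Counting error alone, from the approximate depth, gives an SD of about 4.9% for its lowest column.

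Of the 3 tRNA synthetase genes, Wars was lower with GR siRNA and Aars was higher. Wars, the tryptophanyl-tRNA synthetase, was at 44.1, 41.9, 33.6 and 34.6 FPKM, a difference of −0.38 without DEX and −0.27 with DEX, and was the only member at least 1.2-fold lower in both states (8% of all genes tested), a count that was 0 under either rescaling of the columns. Aars was at 94.4, 86.2, 99.5 and 96.9 FPKM. The gene Exosc6 on the same strand overlaps 14.3% of its exonic bases. Gars was at 195.9, 185.3, 176.9 and 181.9 FPKM.

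Among the 11 ER chaperone genes, Calr was beyond 1.2-fold higher in both states, and Dnajb9 and Manf were beyond 1.2-fold lower without DEX. Calr, a calcium-binding lectin chaperone (chromosome 8, 84841850 to 84846934, minus strand, GRCm38), was at 662.5, 653.3, 822.9 and 811.1 FPKM. The siRNA difference was 0.31 without and 0.31 with DEX, and the DEX difference was −0.02 in each arm. With Cbs it was 1 of 2 members at least 1.2-fold higher in both states (7.02% of all genes tested). Its membrane-bound relative Canx was at 227.4, 223.5, 253.2 and 244.0 FPKM, a difference of 0.15 and 0.13.

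BiP (Hspa5), the master chaperone and the usual marker of ER stress, was at 413.0, 393.8, 434.1 and 442.4 FPKM, a difference of 0.07 and 0.17. Its nucleotide exchange factor Hyou1 was at 59.9, 57.3, 67.0 and 61.2 FPKM, and Hsp90b1 was at 643.0, 611.3, 617.3 and 583.8 FPKM. These well-known targets of the unfolded protein response therefore stayed within 1.2-fold.

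Dnajb9, a BiP co-chaperone that restrains IRE1 and is known to depend on XBP1, was at 24.3, 25.8, 18.6 and 21.5 FPKM, a difference of −0.37 and −0.25. Of its 31-base words, 10.8% occur in Gm6568, which was below 0.1 FPKM in every column. Manf, a secreted protein of the ER, was at 79.7, 79.5, 61.0 and 66.2 FPKM, a difference of −0.38 and −0.26. Exons of other genes, mainly 4930524O07Rik and Dcaf1 on the other strand, overlap 9.25% of its exonic bases. No value was available under these symbols. Both GR columns were below both control columns for Dnajb9 and Manf.

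The remaining chaperones stayed within 1.2-fold. Creld2 was at 51.7, 48.4, 55.2 and 55.0 FPKM and Dnajb11 at 85.6, 85.2, 88.1 and 90.9 FPKM, both with the GR columns highest. Dnajc3, an inhibitor of the eIF2 kinases, was at 47.2, 47.9, 47.3 and 45.5 FPKM. Sdf2l1 was at 35.1, 35.7, 35.3 and 30.98 FPKM, with only the GR siRNA with DEX column low.

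The disulfide isomerases, which form and reshuffle disulfide bonds, were among the steadiest members. Pdia3 had the narrowest spread of all, its highest column being 1.027 times its lowest. Pdia4 was at 108.7, 105.8, 106.5 and 104.0 FPKM, and Pdia6 at 206.8, 205.5, 221.1 and 223.0 FPKM. Of the degradation genes, which remove misfolded proteins from the ER, Herpud1 was higher with GR siRNA (39.2, 38.2, 43.2 and 44.3 FPKM), Sel1l was lower (25.9, 24.8, 22.8 and 23.0 FPKM), and Edem1 was at 35.5, 35.8, 35.0 and 32.9 FPKM.

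Read against the promoter stretches above, the 7 members with an ER stress element had a median siRNA difference of 0.09 without DEX and 0.13 with DEX, with 6 and 5 of the 7 higher. The 8 other ER members with a window but no such element had medians of −0.03 and −0.06, with 3 higher in each state. They include Dnajb11 (0.04 and 0.09) and Herpud1 (0.14 and 0.21), which hold the second ER stress element and were higher in both states. The 6 other tested genes that hold the element had medians of 0.03 and 0.03. Genes of the other pathway lists were not excluded from these 6, and 2 of 88 such genes hold the element. Whether the element bears on any of these differences was not tested. The 7 members with a C/EBP-ATF composite lay on both sides, with medians of −0.09 and 0.09.

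DEX gave smaller differences than the siRNA, and in control siRNA cells most of them were downward. The median size of a member's difference was 0.07 for DEX in control siRNA cells and 0.04 in GR siRNA cells, against 0.13 and 0.17 for the siRNA without and with DEX. Over all genes tested the same medians were 0.05 and 0.07 for DEX, and 0.13 and 0.13 for the siRNA. The smaller DEX differences were therefore not particular to the members. In those cells 2 members, Atf5 and Aldh1l2, were at least 1.2-fold lower (1.21% of all genes tested) and 0 were higher (1.35%), or 1, Cbs, with a pseudocount of 0.1. In GR siRNA cells Sesn2 was lower (1.41%) and 0 were higher (2.34%). No member reached 1.5-fold in either arm (0.686% of genes higher and 0.392% lower in control siRNA cells, 0.531% and 0.645% in GR siRNA cells).

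Counting any difference, however small, 33 of 41 members were lower with DEX in control siRNA cells (52.6% of all genes tested) and 8 were higher (47.4%). In GR siRNA cells 23 of 41 were lower (51.9%) and 18 higher (48.1%). When the columns were rescaled, 30 or 31 of 41 were lower in control siRNA cells. The median member difference was −0.06 in control siRNA cells and −0.02 in GR siRNA cells. Each of these differences is between 2 columns, and the control siRNA columns are also those of the siRNA comparisons.

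The downward side in control siRNA cells held all 6 serine and one-carbon enzymes (52.6% of all genes tested), with a median of −0.14. In GR siRNA cells their median was −0.02, and 4 of the 6 were lower (51.9% of all genes tested). All 3 tRNA synthetases and all 3 disulfide isomerases were also lower in control siRNA cells, with medians of −0.08 and −0.04. Aldh1l2 differed by −0.41 in control and −0.03 in GR siRNA cells, Mthfd2 by −0.17 and −0.00, Asns by −0.19 and 0.03, and Psat1 by −0.13 and 0.07. Phgdh was lower by nearly the same amount in both arms (−0.10 and −0.07). Atf4 differed by −0.07 and −0.04, and Atf5 by −0.30 and −0.05.

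A few genes departed from this pattern. Chac1 was lower with DEX by the same amount in both arms (−0.20 and −0.20), and Trib3 by −0.23 and −0.16. Sesn2 was level in control siRNA cells (0.05) and lower in GR siRNA cells (−0.33). Cbs was higher in both arms (0.21 and 0.09), and Dnajb9 also (0.09 and 0.20). The DEX differences of the 2 arms, each from its own columns, had the same sign in 23 of 41 members (56.1%), against 50.9% of the 9135 genes of at least 5 FPKM.

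**Figure D3:**
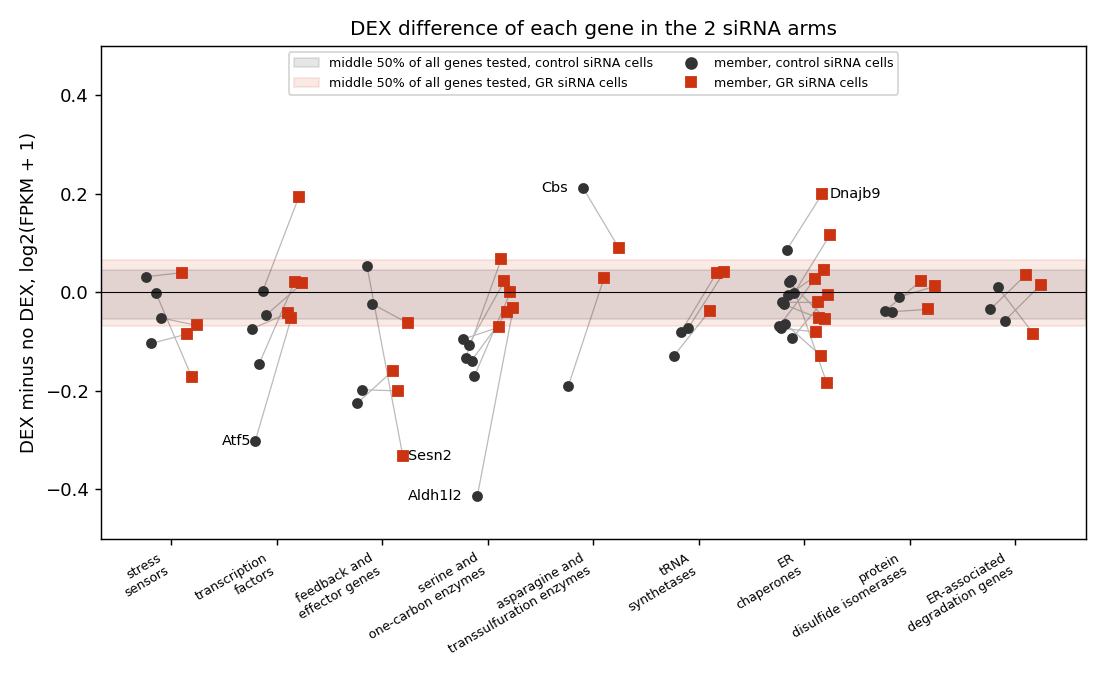
Difference between DEX and no DEX on log2(FPKM + 1) for each of the 41 members, by role; black circles are control siRNA cells, red squares GR siRNA cells, and a line joins the values of 1 gene. Shaded bands hold the middle 50% of all genes tested in each arm. The serine and one-carbon enzymes lie below 0 in control siRNA cells and closer to 0 in GR siRNA cells.

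The rest of the pathway was read from 6 further lists, with 117 of 121 genes tested. Together they had a median siRNA difference of 0.02 without DEX and 0.07 with DEX. Without DEX 9 of the 117 (7.69%) were at least 1.2-fold higher and 6 (5.13%) lower, against 10.7% and 12.6% of all genes tested. With DEX 15 (12.8%) were higher and 5 (4.27%) lower, against 10.7% and 12.1%. Other ATF4-responsive genes had medians of 0.06 and 0.11. In control siRNA cells 18 of 24 of them were lower with DEX (52.6% of all genes tested), with a median of −0.08, and in GR siRNA cells 10 of 24 were (51.9%), with a median of 0.01. Other cytosolic tRNA synthetases had siRNA medians of 0.08 and 0.11, and 15 of 17 were lower with DEX in control siRNA cells and 13 in GR siRNA cells, beside the same 52.6% and 51.9%. In control siRNA cells 12 of 15 genes of the eIF2 list were also lower with DEX. The other ER lists were nearer the background or under it, with 16 of 30 folding genes, 6 of 15 degradation genes and 7 of 16 sensor partners lower. Together 74 of the 117 (63.2%) were lower in control siRNA cells and 53 (45.3%) in GR siRNA cells.

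Among genes of these lists with at least 5 FPKM in a column, Ddit4 and Fkbp14 differed by more than any member between the siRNAs. Ddit4 (REDD1), an mTORC1 inhibitor that is a known GR target as well as an ATF4 target, was at 372.8, 439.9, 238.4 and 251.3 FPKM. Its siRNA difference was −0.64 and −0.81, and its DEX difference in control siRNA cells was 0.24. Aldh18a1, which starts proline synthesis, was at 53.5, 49.0, 68.1 and 67.8 FPKM, the same order of columns as Shmt2. Gdf15, a stress-induced secreted factor, was at 13.6, 14.2, 17.4 and 18.3 FPKM.

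In the eIF2 list the medians were −0.03 and 0.05. Eif2s2, which encodes the beta subunit of eIF2, was at 152.8, 145.1, 114.3 and 121.5 FPKM, and 12.4% of its 31-base words are shared, mainly with Gm9892. The kinase gene Eif2ak2 (PKR) was at 47.2, 43.0, 39.0 and 37.2 FPKM. Other ER folding genes had medians of 0.04 and 0.11. Among them Fkbp14, a prolyl isomerase of collagen folding, was at 38.4, 36.8, 21.8 and 22.4 FPKM, a difference of −0.79 and −0.69. Exons of Plekha8 on the other strand overlap 5.0% of the exonic bases of Fkbp14. Plekha8 was at 16.3, 16.4, 13.8 and 13.2 FPKM, also lower with GR siRNA. Ero1lb, an oxidase that recharges the disulfide isomerases, lies below 5 FPKM and was named after its values were seen. It was at 4.06, 3.93, 2.55 and 2.28 FPKM, a difference of −0.51 and −0.59. Other degradation genes had medians of −0.01 and −0.03. The list of sensor partners had medians of 0.07 and 0.05 and included Tnfrsf10b, the death receptor DR5 that CHOP is known to raise. It was at 34.9, 33.8, 44.8 and 42.9 FPKM, higher with GR siRNA while Ddit3 was lower.

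**Figure D4:**
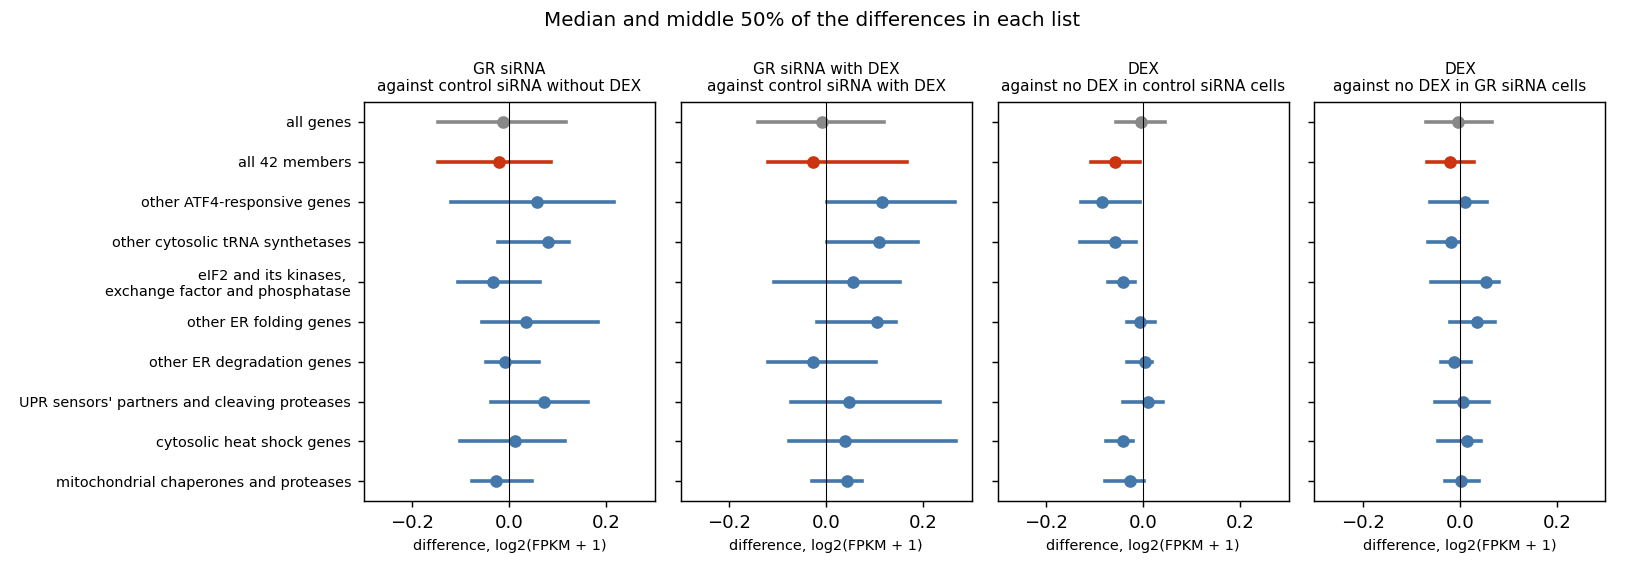
Median (point) and middle 50% (bar) of the log2(FPKM + 1) differences in each gene list, for the 4 comparisons; grey is all genes tested, red the stress response members and blue the other lists. The medians of the ATF4-responsive genes and the tRNA synthetases lie left of 0 for DEX in control siRNA cells. That of the members (−0.06) lies as far left as that of the tRNA synthetases (−0.06). Those of the eIF2 list, the cytosolic heat shock genes and the mitochondrial chaperones and proteases lie left of 0 by less. That of the other ER folding genes (−0.01) is near that of all genes (−0.01).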

How the data were processed

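The deposited values are FPKM per gene, 1 column per condition for 23997 genes. Per the submitters' processing notes the authors used TopHat2 and Cuffdiff on mm10. The sources used here name no versions, annotation, strand setting or filters, and do not say how replicates were handled. FPKM holds no read counts, so depth was estimated from the steps between low values, assuming GENCODE M21 lengths, and is approximate. On that basis the 40 members of at least 5 FPKM rest on about 678 to 101273 fragments per column, a counting SD of 0.37% to 3.8%, which covers counting error only.

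Differences were taken on log2(FPKM + 1) for genes of at least 1 FPKM in a column compared and counted at 1.2-fold and 1.5-fold, beside the same count over all genes. There is 1 column per condition, so limma, foreseen for replicate columns, was not used. Of each further list, up to 4 genes with the largest mean siRNA difference among those of at least 5 FPKM in a column could be named; all members could. The members and lists were chosen with earlier results of these data known. Coordinates are GRCm38 (mm10). Work was done in Python 3.11.15 with pandas 2.3.3 and numpy 2.4.6, and the counting step was tested on simulated data. The alternatives were a pseudocount of 0.1, no filter, a filter of 5 FPKM, and 2 rescalings of the columns.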

Additional observations from a re-analysis of the deposited data

How the results depend on the processing

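The medians of the members moved by less than the limit set for a change (0.1 on the log2 scale) under all 5 alternatives, but the median without DEX is so near 0 that it turned from −0.02 to 0.02 when columns were rescaled to 1 upper quartile. With a filter of 5 FPKM, 1 member (Calr) was at least 1.2-fold higher in both DEX states. With a pseudocount of 0.1, 2 members (Wars and Manf) were at least 1.2-fold lower in both states, Cbs moved to 0.62 and 0.44, past 1.5-fold without DEX, Aldh1l2 passed 1.5-fold with DEX (0.59), and Cbs became at least 1.2-fold higher with DEX in control siRNA cells. With either rescaling 0 were lower in both states, since Wars fell short of 1.2-fold with DEX. Under either rescaling Atf4 also fell short of 1.2-fold without DEX, leaving 3 higher and 5 lower, and with DEX the counts became 6 higher and 1 lower, against 5 and 2, with Mthfd2 added. Counting any difference, the upper quartile rescaling gave 23 members higher and 18 lower without DEX, against 19 and 22, and 30 lower with DEX in control siRNA cells, against 33. These shifts follow from factors of 0.9859 to 1.0146 on the columns, beside values near the limits. Across 164 member differences, 8 changed sign with the upper quartile rescaling and 3 with the median-of-ratios rescaling, none larger than 0.03 as deposited. No paired analysis was possible because the table has 1 column per condition, and for the same reason no replicate could be left out.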

Other observations

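The cytosolic heat shock genes, which respond to unfolded protein outside the ER, had medians of 0.01 and 0.04 for GR siRNA without and with DEX (13 and 14 genes tested), and single genes lay far apart. With DEX, 10 of 13 were lower in control siRNA cells (52.6% of all genes tested) and 6 of 14 in GR siRNA cells (51.9%). Hsph1, a co-chaperone of HSP70, was at 38.4, 35.8, 53.4 and 49.5 FPKM, in the order of the columns used above. Chordc1, an HSP90 co-chaperone, was at 33.5, 34.1, 27.8 and 28.3 FPKM. Hsp90aa1 was at 250.5, 235.2, 192.8 and 188.0 FPKM, but 51.5% of its 31-base words occur in other annotated genes.

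Mitochondrial chaperones and proteases had medians of −0.03 and 0.04 over 10 genes. With DEX, 7 of the 10 were lower in control siRNA cells and 5 in GR siRNA cells, beside 52.6% and 51.9% of all genes tested. Hspe1, the partner of HSP60, was at 162.8, 163.1, 99.3 and 110.4 FPKM, while Hspd1, which encodes HSP60 and is transcribed from the neighbouring opposite strand, was at 191.9, 180.4, 190.2 and 185.7 FPKM. Of the 31-base words of Hspe1, 30.5% are shared with other genes, and its longest transcript is 964 bases.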
